A study of Mus musculus with 36 samples.

Results

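Retinas taken 6 weeks (6W) and 3 days (3D) after a microbead injection were compared directly with each other, as the late and early ends of the glaucoma time course. The comparison was chosen by label: the 2 libraries of retina, glaucoma, 6W against the 2 of retina, glaucoma, 3D, which are 4 of the 36 libraries of the series. All 4 came from young adult C57BL/6 mice that received microbeads in the anterior chamber of 1 eye to raise the intraocular pressure, and each library was made from equal amounts of total RNA of 2 mice of 1 sex. Each time point therefore had 1 female and 1 male pool, so that pool, sex and library cannot be told apart within a group. A p-value measures the spread between such pools that is left after a sex difference shared by the groups is taken out. Retinas of untreated C57BL/6 mice (naïve) and of mice 2 weeks (2W) after the beads were sampled in the same way. They entered the fit for the spread and are given beside some of the values. In the paper the mean pressure difference between the eyes was similar in the 3D and 6W mice on day 1. On day 3 it was smaller and more variable in the 3D mice than in the 6W mice. The part of this in the results was not tested. Because whole retina was sequenced, fewer cells of a type and less RNA per cell cannot be told apart.

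Raised pressure injures the axons of retinal ganglion cells (RGCs), the output neurons of the retina, where they leave the eye. Müller glia, the astrocyte-like radial glia of the retina, and microglia respond early to such injury, in part through cytokines that signal by the gp130 receptor family and the transcription factor STAT3, with GFAP as the best known readout. Injured RGCs turn on a regeneration-associated programme that includes Atf3, Sox11, Gal and Sprr1a, and RGCs that die take their marker transcripts with them.

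The 4 libraries held 19.9 M (3D, female), 46.9 M (3D, male), 34.2 M (6W, female) and 26.6 M (6W, male) estimated counts, and those of the naïve and 2W retinas lay between 32.5 M and 43.8 M. The retina label held: the 20 rod photoreceptor markers summed to between 100000 and 110000 CPM (counts scaled to the library total) in the 4 libraries, while skeletal muscle markers summed to between 20.5 and 46.3 CPM. Male and female pools of a group differed by more than 2-fold at 1686 of 16900 genes at 3D and at 1333 at 6W. The female 3D pool stood apart in RGC transcripts: the 8 RGC markers summed to 243 CPM there, against 453 in the male 3D pool and 381 and 447 CPM in the female and male 6W pools. It was also the shallowest library.

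Between 3D and 6W few retinal genes passed the test. Of 23301 genes tested, edgeR's quasi-likelihood test called 3 (0.0129%) at an adjusted p under 0.05 and beyond a 2-fold change: Ak4 and Grk1 fell and Purb was called higher. Without the adjustment, 1069 genes (4.59%) were higher and 795 (3.41%) lower at 6W with p under 0.05. DESeq2, the tool the study used, called 92 of 16355 genes (0.563%), 46 in each direction, and Ak4 and Grk1 were the calls shared by both tools. The edgeR calls of Ak4 and Grk1 rest on the 2 naïve libraries in the fit: with the 6 glaucoma libraries alone their adjusted p was 0.0909 and 0.135, with log2 differences of -3.77 and -2.11.

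Grk1 (ENSMUSG00000031450, chr8:13405081-13421951, plus strand, GRCm38) encodes a kinase of photoreceptor outer segments, which phosphorylates light-activated opsin in rods and cones and so ends its signal. Its level was 867 and 828 CPM in the female and male 3D pools and 164 and 236 CPM at 6W, after 948 and 1340 CPM at 2W and 828 and 967 CPM in naïve retina. The 6 earlier libraries thus lay together, and both 6W pools lay below all of them. The fall was 2.11 on the log2 scale (SE 0.18, 4.33-fold; edgeR adjusted p = 0.0349). One transcript, Grk1-201, carried it, with 865 and 823 CPM at 3D and 161 and 233 CPM at 6W. The FPKM values deposited by the authors fell in step, from 103 and 95.7 to 20 and 28.1.

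Other rod genes did not go with Grk1. Of the 20 rod photoreceptor markers, 13 were lower and 7 higher at 6W with a median of -0.06 on the log2 scale, against 0.01 over all genes tested, and none was called. Sag, which encodes the arrestin that binds the opsin once Grk1 has phosphorylated it, was lower, at 13200 and 11000 CPM against 9600 and 9290 CPM (log2 difference -0.34, SE 0.14, edgeR adjusted p = 0.606). The time points did not overlap, and naïve retina, at 10000 and 9520 CPM, lay below both 3D pools and near the 6W pools. The 13 cone markers had a median of 0.01, the 17 bipolar cell markers 0.04, the 9 horizontal cell markers 0.04 and the 16 amacrine cell markers 0.05.

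Ak4 (ENSMUSG00000028527, chr4:101419277-101466995, plus strand) encodes a mitochondrial adenylate kinase that balances adenine nucleotides. It stood at 28.8 and 32.2 CPM at 3D, 30.4 and 34.6 CPM at 2W, and 2.79 and 1.68 CPM at 6W, with 25.8 and 25.2 CPM in naïve retina. As with Grk1, both 6W pools lay below the 6 other libraries. The fall was 3.77 on the log2 scale (SE 0.29, 13.6-fold; edgeR adjusted p = 0.024). The estimated counts moved among the Ak4 isoforms from library to library: Ak4-203 had 28.6 and 30.3 CPM at 3D and 0 in both 6W pools, while in naïve retina Ak4-201 and Ak4-202 carried most of the female pool. In the authors' FPKM the 3D pools held 6.25 and 7.09 of Ak4 and the 6W pools 3.71 and 2.19, a smaller difference, and on the FPKM scale neither Ak4 (limma adjusted p = 0.441) nor Grk1 (0.0847) was called.

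Both falls came after 2W. Ak4 was lower at 6W than at 2W by 3.86 and Grk1 by 2.52 on the log2 scale (edgeR adjusted p = 0.0163 for each), and they were the 2 genes (0.00858%) called between those times. Between 3D and 2W edgeR called 1 gene (0.00429%), which was Purb. DESeq2 called 0.596% of genes between 3D and 2W and 0.305% between 2W and 6W. Purb, a single-stranded DNA-binding protein, had 0 counts in every female pool and in the male 3D pool, and 582, 212 and 213 CPM in the male naïve, 2W and 6W pools. It was named after its values were seen, no fold is given for it, and without the male 3D pool its fitted difference turned to -0.73.

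**Figure D1:**
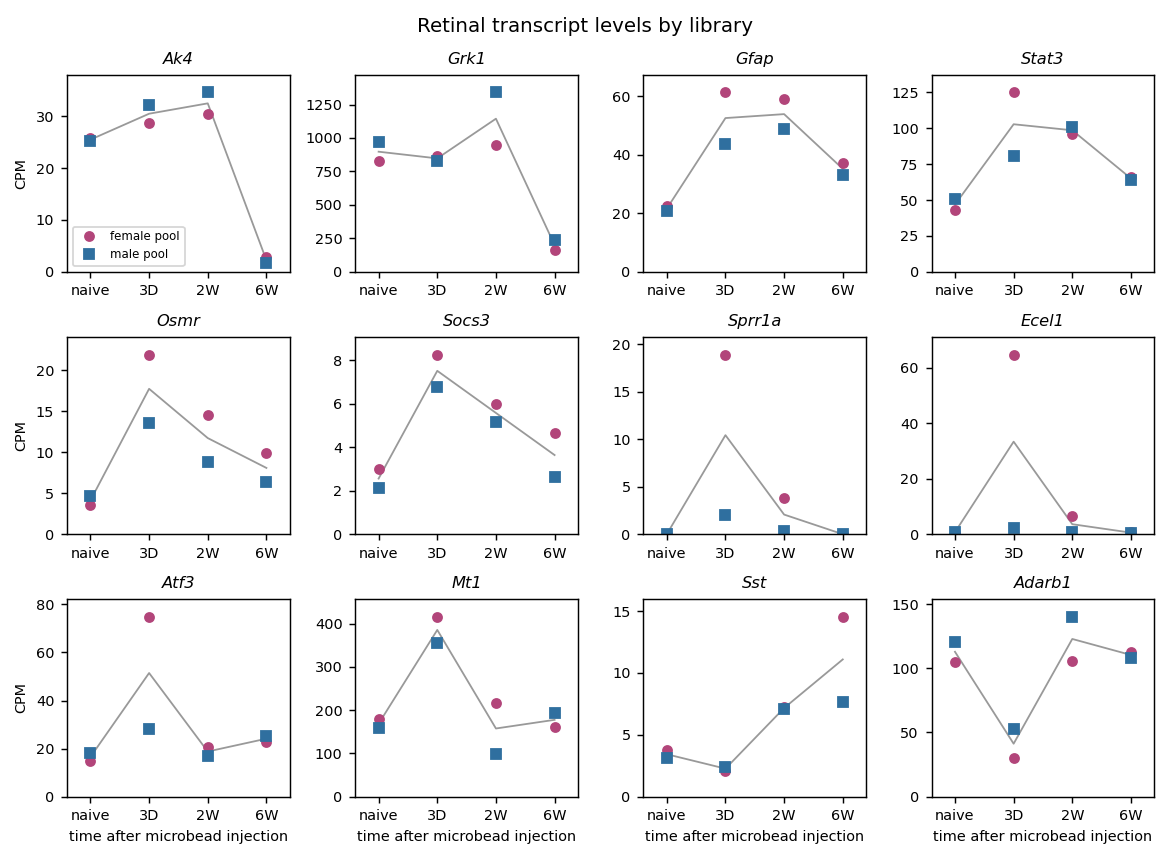
Level of 12 genes in CPM (vertical axes, from 0) in female (circles) and male (squares) retina pools of naïve mice and 3D, 2W and 6W after microbeads; grey lines join the means of the 2 pools. Ak4 and Grk1 drop only at 6W, Gfap, Stat3, Osmr, Socs3, Sprr1a, Ecel1 and Atf3 are highest in the female 3D pool, and Adarb1 is lowest at 3D.

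**Figure D2:**
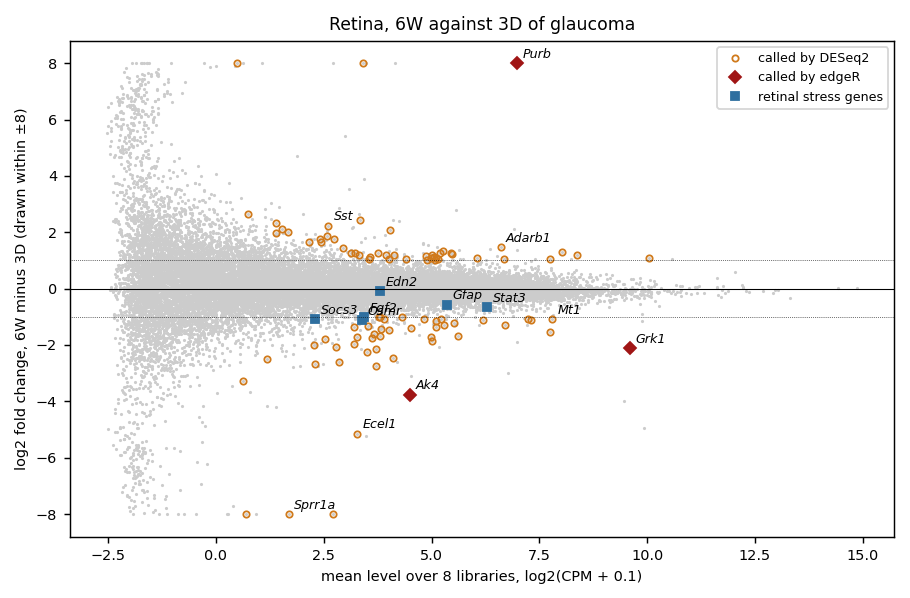
Log2 fold change between 6W and 3D (vertical axis, edgeR, drawn within ±8) against mean level over the 8 libraries (horizontal axis, log2 CPM). Each grey point is 1 of 23301 genes tested, diamonds are the 3 edgeR calls, open circles the DESeq2 calls and squares the 6 retinal stress genes, all of which lie below 0.

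The retinal stress genes were lower at 6W than at 3D without any of them being called. All 6 of the list that the study used (Gfap, Osmr, Fgf2, Edn2, Stat3 and Socs3) had a difference below 0, where 48.7% of all genes did. Their median was -0.83 on the log2 scale, and 4 had an unadjusted p under 0.05 and lower values in both 6W pools than in either 3D pool, against 3.41% and 19.9% of all genes. The study chose these genes for their response in these samples, so their direction is not independent evidence. The time steps differed: the median was 0 between 3D and 2W and -0.63 between 2W and 6W, and at 6W it was still 0.8 above naïve.

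Socs3 encodes the inhibitor that STAT3 induces against its own pathway. Its level was 8.24 and 6.77 CPM at 3D, 5.98 and 5.16 CPM at 2W, 4.65 and 2.62 CPM at 6W and 2.98 and 2.13 CPM in naïve retina (log2 difference 6W minus 3D -1.08, SE 0.32, edgeR adjusted p = 0.587). The 250 bases upstream of its start site (RefSeq, GRCm38.p6, chr11:117969367-117969616, minus strand) are shown because they hold a match to the STAT palindrome TTCNNNGAA, in capitals, which begins 154 bases before the start.
Socs3: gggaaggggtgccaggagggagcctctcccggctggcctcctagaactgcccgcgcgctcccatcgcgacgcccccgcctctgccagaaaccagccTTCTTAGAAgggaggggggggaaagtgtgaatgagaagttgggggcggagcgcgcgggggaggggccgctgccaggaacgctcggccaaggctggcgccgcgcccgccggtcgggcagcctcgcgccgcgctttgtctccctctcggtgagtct
The palindrome reads the same on both strands and occurs in 7.02% of 32851 mouse promoter windows of that length. It was found in 1 of the 6 stress gene promoters, that of Socs3 itself, and in 1 of the 18 promoters of the gp130 and STAT3 list for which a window was at hand. A match describes the letters only.

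Stat3 itself stood at 125 and 80.7 CPM at 3D and 66.1 and 64.1 CPM at 6W (log2 difference -0.65, SE 0.21). Osmr, the oncostatin M receptor that pairs with gp130, was at 21.9 and 13.6 CPM against 9.86 and 6.32 CPM (-1.13, SE 0.33). Gfap, the intermediate filament of reactive Müller glia and astrocytes, was at 61.3 and 43.8 CPM against 37.2 and 33.2 CPM (-0.56, SE 0.17). For these 3 genes the time points did not overlap, and the adjusted p in edgeR was 0.587 for each. Fgf2 and Edn2, the growth factor and the endothelin that stressed photoreceptors and Müller glia release, did overlap between the times: Fgf2 was at 11.4 and 6.9 CPM at 3D and 15.5 and 0.636 CPM at 6W, and Edn2 at 17.9 and 10.7 CPM against 20.2 and 8.83 CPM. The wider gp130 and STAT3 list had 17 of 21 tested genes lower, 9 of them without overlap, and a median of -0.36. Over all genes 48.7% were lower, and 19.9% were lower without overlap.

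The RGC axon injury list gave the same direction and leaned on the female 3D pool. Of its 18 genes 17 were lower at 6W, 11 without overlap, where 48.7% of all genes were lower and 19.9% lower without overlap. The median of the list was -0.43, or -0.2 without the female 3D pool. None was called by edgeR, and DESeq2 called 2, Sprr1a and Ecel1 (0.281% of all genes were called lower by DESeq2).

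Sprr1a, a small proline-rich protein that promotes axon outgrowth, was at 18.9 CPM in the female and 1.97 CPM in the male 3D pool, at 3.85 and 0.284 CPM at 2W, and had 0 counts in both 6W pools and in naïve retina. Against a floor of 3 counts over the 6W group it was at least 148-fold lower at 6W than at 3D (edgeR adjusted p = 0.117, DESeq2 adjusted p = 0.0386). Its 250 upstream bases (RefSeq, GRCm38.p6, chr3:92485882-92486131, minus strand) are shown for the 2 matches to the AP-1 site TGANTCA, the site bound by Jun, Fos and related factors of the injury programme, in capitals, beginning 146 and 116 bases before the start.
Sprr1a: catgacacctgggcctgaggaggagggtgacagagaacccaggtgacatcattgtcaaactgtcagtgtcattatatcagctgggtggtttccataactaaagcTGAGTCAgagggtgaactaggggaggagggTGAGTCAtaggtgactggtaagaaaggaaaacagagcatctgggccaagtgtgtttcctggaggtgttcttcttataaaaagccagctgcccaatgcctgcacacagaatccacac
On either strand that site occurs in 6.75% of all windows, and it was found in 3 of the 18 promoters of the axon injury list.

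Ecel1, a membrane peptidase of injured neurons, stood at 64.6 CPM in the female and 2.05 CPM in the male 3D pool and at 0.76 and 0.337 CPM at 6W (DESeq2 log2 difference -5.06, adjusted p = 0.0382). Without the female 3D pool Ecel1 (DESeq2 adjusted p = 0.533) and Sprr1a (0.842) both lost their call. Sprr1a also lost it without the male 3D pool (DESeq2 adjusted p = 0.787), and Ecel1 without the female (0.813) or the male (0.207) 6W pool. The same pool led in Atf3, Sox11, Gal and Cdkn1a, 4 further genes of injured neurons named after their values were seen. Atf3, a stress-induced transcription factor, was at 74.7 and 28.2 CPM at 3D and 22.9 and 25.3 CPM at 6W. Sox11, a transcription factor of growing neurons, was at 23.3 and 5.48 CPM against 3.41 and 3.29 CPM. The neuropeptide gene Gal was at 15.9 and 5.31 CPM against 3.15 and 1.8 CPM, and the cell cycle inhibitor gene Cdkn1a at 34.1 and 15.1 CPM against 11.8 and 11 CPM. Their time points did not overlap, and none passed the adjusted threshold of either tool. Without the female 3D pool the log2 difference went from -1.02 to -0.22 for Atf3, from -1.92 to -0.76 for Sox11, from -1.03 to -0.49 for Cdkn1a and from -1.94 to -1.83 for Gal. In the female 3D pool these high values stood beside the lowest RGC marker sum of the 8 libraries, and the part of that pool in the result was not tested.

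RGC markers were not lower at 6W than at 3D, and both times lay below naïve retina. Against naïve the median of the 8 markers was -0.63 at 3D and -0.29 at 6W on the log2 scale. They summed to 563 and 496 CPM in the female and male naïve pools. Of the 8 markers used by the study 6 were higher and 2 lower, with a median of 0.34, and none was called; 51.3% of all genes were higher. Pou4f2, a POU-domain transcription factor of RGCs, was at 1.24 and 2.84 CPM at 3D and 6.87 and 4.04 CPM at 6W (log2 difference 1.44, SE 0.48, edgeR adjusted p = 0.587). Rbpms, an RNA-binding protein confined to RGCs among retinal neurons, was at 15.4 and 27.4 CPM against 28.4 and 14 CPM (-0.01, SE 0.41), and its sign turned in several of the settings tried. Sncg was at 87.6 and 208 CPM against 172 and 203 CPM, Tubb3 at 97.8 and 140 CPM against 118 and 135 CPM, Thy1 at 23.9 and 29.8 CPM against 12.3 and 39.2 CPM, Pou4f1 at 4.37 and 11.9 CPM against 11.2 and 8.91 CPM, Pou4f3 at 2.73 and 3.47 CPM against 4.42 and 4.6 CPM, and Rbpms2 at 9.88 and 30.5 CPM against 27 and 38.5 CPM. The 3D and 6W values overlapped for all but Pou4f2 and Pou4f3. Without the female 3D pool the median of the 8 markers was -0.04 and without the male 3D pool it was 1.07. A second list of 24 RGC genes gave a median of 0.34 with 18 higher, and 0.05 without the female 3D pool.

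The 92 DESeq2 calls were read for how they stood up to the loss of a library. Leaving out 1 of the 4 libraries in turn gave 102 to 134 calls, of which 27 to 36 were among the 92, and 8 genes were called each time: Adarb1, Agps, Ak4, C2cd2l, Dpm1, Grk1, Lrrc47 and Nrep. Of the 91 calls that edgeR also tested, 90 (98.9%) had time points without overlap, against 41.5% of all genes tested. The choice of genes from the same 4 libraries largely fixes this. In the FPKM of the same libraries 43 of the higher and 41 of the lower calls did not overlap in the same direction. The FPKM come from the same reads, so these counts are not independent evidence. The FPKM share over all genes was not counted.

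Of the 8, all but Ak4 and Grk1 were named after their values were seen. Adarb1 and C2cd2l rose by DESeq2. Adarb1 (chr10:77290726-77418270, minus strand), the adenosine deaminase that edits glutamate receptor transcripts, was at 30 and 52.5 CPM at 3D and 113 and 108 CPM at 6W (log2 fold change 1.46, SE 0.23, adjusted p = 1.04e-06). Its levels were 106 and 140 CPM at 2W and 105 and 121 CPM in naïve retina, so that 3D stood alone as low. C2cd2l, a lipid transfer protein of contact sites between the endoplasmic reticulum and plasma membrane, was at 128 and 153 CPM at 3D, 329 and 453 CPM at 2W and 330 and 364 CPM at 6W (1.3, SE 0.2, adjusted p = 1.01e-07). Here naïve retina, at 171 and 158 CPM, stood near 3D.

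The other calls of the 8 fell by DESeq2. Dpm1, the catalytic subunit of the synthase that makes dolichol-phosphate mannose for glycosylation, was at 60.1 and 85.7 CPM at 3D, 21.3 and 19.3 CPM at 6W, and 15.7 and 15.1 CPM in naïve retina (log2 fold change -1.85, SE 0.26, adjusted p = 3.03e-09). The gene overlaps an annotated read-through gene, and how the counting split their reads is not known. Its transcript Dpm1-209 held 41.5 and 73.9 CPM at 3D and 6.22 and 7.55 CPM at 6W. Agps, an enzyme of ether lipid synthesis in peroxisomes, was at 36.5 and 32 CPM at 3D and 14.4 and 11.8 CPM at 6W, and already at 11.7 and 11.9 CPM at 2W (-1.39, adjusted p = 6.67e-06). Nrep, a neuronal regeneration-related protein, was at 144 and 145 CPM against 68.8 and 50.1 CPM (-1.31, adjusted p = 4.31e-07). Lrrc47 was at 18.8 and 19.4 CPM against 3.86 and 3.11 CPM (-2.48, adjusted p = 6.72e-08). In naïve retina Agps was at 32.1 and 31.2 CPM and Nrep at 141 and 102 CPM. Lrrc47 was at 20.8 and 25.7 CPM there, so each of these genes lay nearer 3D than 6W. Apart from Ak4 and Grk1, none of the 8 passed edgeR's adjusted threshold in the 8-library fit, where the adjusted p ranged from 0.206 for Dpm1 to 0.395 for Lrrc47.

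Further DESeq2 calls higher at 6W are named here after their values were seen. Sst, the neuropeptide somatostatin made by a class of amacrine cells, was at 2.09 and 2.42 CPM at 3D, 7.24 and 7.07 CPM at 2W and 14.5 and 7.67 CPM at 6W (log2 fold change 2.23, SE 0.42, DESeq2 adjusted p = 0.000137), with 3.74 and 3.1 CPM in naïve retina. Without the female 6W pool its DESeq2 adjusted p was 0.294. Its promoter (RefSeq, GRCm38.p6, chr16:23890845-23891094, minus strand) is shown for the cAMP response element TGACGTCA, in capitals, which begins 48 bases before the start and occurs in 1.55% of windows.
Sst: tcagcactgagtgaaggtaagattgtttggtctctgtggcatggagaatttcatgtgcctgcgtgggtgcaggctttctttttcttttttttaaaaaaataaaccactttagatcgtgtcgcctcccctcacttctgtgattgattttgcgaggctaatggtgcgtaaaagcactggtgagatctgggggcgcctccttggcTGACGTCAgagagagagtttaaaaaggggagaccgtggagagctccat
Gabbr2, a GABA-B receptor subunit, was at 18.6 and 24 CPM at 3D and 45.6 and 43.3 CPM at 6W (1.06, DESeq2 adjusted p = 0.00197). Nrxn2, a presynaptic adhesion protein, was at 14.1 and 21.1 CPM against 39.1 and 37.6 CPM (1.12, adjusted p = 0.00632), and Homer2, a postsynaptic scaffold, at 7.89 and 8.19 CPM against 15.4 and 21.7 CPM (1.2, adjusted p = 0.0297). For all 3, naïve and 2W retina were above 3D. Bcl2, which restrains apoptosis, was at 17.9 and 18.9 CPM at 3D and 37.7 and 40.9 CPM at 6W (1.09, adjusted p = 0.000802). Rorb, a nuclear receptor needed for photoreceptor development, was at 208 and 146 CPM against 408 and 422 CPM (1.2, adjusted p = 0.00794). In naïve retina Bcl2 was at 30.5 and 26.4 CPM and Rorb at 213 and 377 CPM. By edgeR the adjusted p was 0.465 for Sst and Bcl2, 0.469 for Gabbr2, 0.58 for Nrxn2 and 0.587 for Homer2 and Rorb. None of these genes kept its DESeq2 call each time a library was left out.

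Slc12a5 and Glrb fell by DESeq2 and were named after their values were seen. Slc12a5, the chloride extruder that sets the response to GABA and glycine, was at 350 and 260 CPM at 3D, 88.6 and 176 CPM at 2W and 105 and 107 CPM at 6W (log2 fold change -1.54, DESeq2 adjusted p = 7.58e-05). Glrb, the glycine receptor beta subunit, was at 56.6 and 58.1 CPM against 16.4 and 34.4 CPM (-1.23, adjusted p = 0.00563). Naïve retina was near 3D, at 306 and 332 CPM for Slc12a5 and 55.3 and 56.2 CPM for Glrb. The adjusted p in edgeR was 0.58 for each, and neither kept its DESeq2 call each time a library was left out. The list of 26 glutamate, GABA and glycine receptor genes that holds Glrb had a median of 0.07 with 16 higher and 10 lower, and Glrb was its 1 DESeq2 call. Gabbr2, which DESeq2 called higher, is not in that list.

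Mt1, a zinc-binding metallothionein induced by stress, fell by DESeq2 from 415 and 356 CPM at 3D to 161 and 194 CPM at 6W (log2 fold change -1.1, adjusted p = 0.0232). Its neighbour Mt2 (59.9 and 60.6 against 21.3 and 32.6 CPM) was not called, and some reads of these related genes may be split between them. H2-Q7, an MHC class I-like gene with near-identical neighbours, fell by DESeq2 from 8.44 and 10.5 CPM to 2.14 and 2.58 CPM (-2.01, adjusted p = 0.00303), which is uncertain for that reason. Txnip, the thioredoxin-binding regulator of redox and glucose uptake, fell by DESeq2 from 8.34 and 10.3 CPM to 1.1 and 1.83 CPM (-2.69, adjusted p = 0.000642). Ago1, an Argonaute protein of the miRNA pathway, fell by DESeq2 from 25.4 and 23.5 CPM to 4.62 and 3.11 CPM (-2.75, adjusted p = 0.000144). Ago1 stood at 32.5 CPM in the female and 4.54 CPM in the male 2W pool, so that the pools of 1 time point differed as much as the time points. In naïve retina Mt1 was at 179 and 158 CPM and H2-Q7 at 2.41 and 2.38 CPM. Txnip was at 2.7 and 4.18 CPM there and Ago1 at 5.54 and 3.98 CPM, so each lay nearer 6W than 3D. Txnip and Ago1 were named after their values were seen. By edgeR the adjusted p was 0.587 for Mt1, 0.574 for H2-Q7 and 0.58 for Txnip and Ago1. None of these genes kept its DESeq2 call each time a library was left out.

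The DESeq2 calls split by what the 2W and naïve retinas did. Of the 45 calls higher at 6W that edgeR tested, 2W lay nearer 6W than 3D in 40 (88.9%), and of the 46 lower calls in 17 (37%), against 59.4% of all genes. Naïve retina lay nearer 6W in 26 of the higher calls (57.8%) and 14 of the lower calls (30.4%), against 48.4% of all genes. These shares describe genes chosen from the same 3D and 6W libraries.

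**Figure D3:**
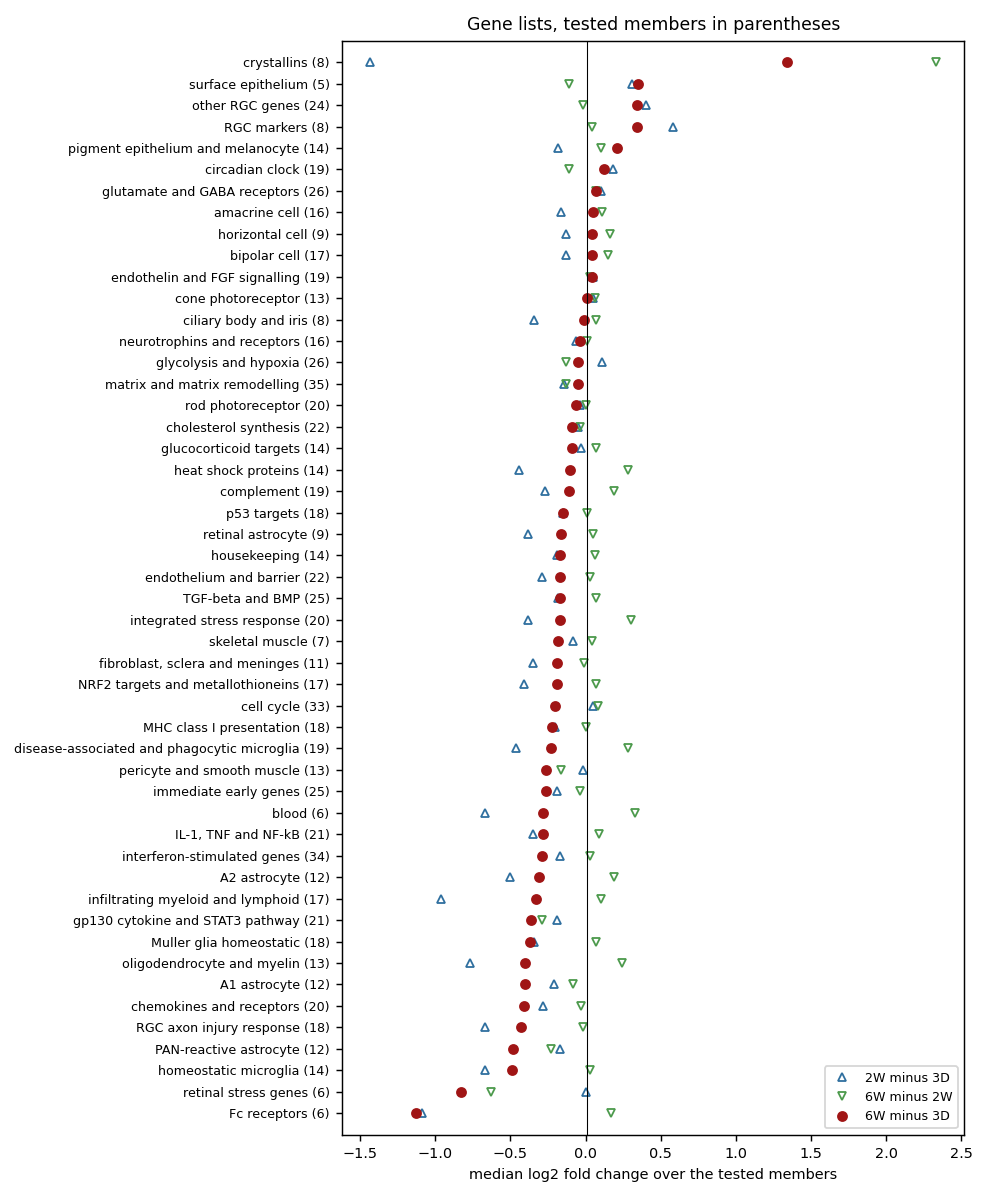
Median log2 fold change over the tested members of each gene list (number in parentheses) for 6W minus 3D (filled circles), 2W minus 3D (upward triangles) and 6W minus 2W (downward triangles), without the mitochondrially encoded list; the line marks the median of all genes. Fc receptors (-1.13) and retinal stress genes (-0.83) lie lowest for 6W minus 3D, and the crystallins (1.34) highest.

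In the glial and microglial lists most members were lower at 6W, and none had a member called by edgeR. The housekeeping list was as much to that side, with 11 of 14 lower (78.6%) and 7 without overlap, where 48.7% of all genes were lower and 19.9% lower without overlap. Of 18 Müller glia genes 13 were lower, 8 without overlap, with a median of -0.37 (-0.11 without the male 3D pool). Slc1a3, the glutamate transporter of Müller glia, was at 242 and 284 CPM at 3D and 205 and 176 CPM at 6W (edgeR adjusted p = 0.587). Of 14 homeostatic microglia genes 12 were lower, 7 without overlap, with a median of -0.49 (-0.18 without the male 3D pool). Aif1, which encodes Iba1, was at 4.77 and 6.71 CPM against 1.94 and 0.973 CPM (log2 difference -2, SE 0.58, edgeR adjusted p = 0.587), and Olfml3 at 19 and 23.3 CPM against 10.8 and 11.4 CPM. Tmem119, P2ry12 and Cx3cr1, the most specific markers of the list, overlapped between the times, with log2 differences of 0.24, -0.11 and -0.06. All 6 Fc receptor genes were lower, with a median of -1.13 that was -0.03 without the male 3D pool. Fcgr3, an activating Fc receptor, was at 9.14 and 15.4 CPM at 3D and 6.76 and 4.98 CPM at 6W.

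Reactive astrocyte lists gave medians of -0.48 (PAN-reactive, 8 of 12 lower), -0.4 (A1, 10 of 12 lower) and -0.31 (A2, 7 of 12 lower). Over the 20 alternatives these medians ranged from -0.49 to 0.11, from -0.68 to -0.09 and from -0.56 to 0.13. Not all of their members were lower. Lcn2, the secreted lipocalin of reactive astrocytes, was at 21 and 99 CPM at 3D and 191 and 146 CPM at 6W, and C3, the central complement protein counted as an A1 marker, at 1.19 and 14.8 CPM against 43.7 and 36.3 CPM. Neither was called (edgeR adjusted p = 0.722 and 0.645), and both were named after their values were seen. C4b, another complement protein, was at 19.1 and 24.9 CPM at 3D and 53.8 and 36.3 CPM at 6W (log2 difference 0.98, SE 0.4, edgeR adjusted p = 0.613), and in naïve retina at 4.28 and 5.31 CPM. Over the 19 complement genes the median was -0.11, with 10 lower. The 34 interferon-stimulated genes had a median of -0.29 (22 lower), the 18 MHC class I genes -0.22 (13 lower) and the 25 immediate early genes -0.26 (19 lower).

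Crystallins, the lens proteins that retina also makes, had the highest list median, 1.34 over 8 tested genes, and this rested on 1 pool. Their summed level was 159 CPM in the female 6W pool, 68 CPM in the male 6W pool and 75.9 and 93.7 CPM at 3D. Crybb2 was at 19.9 CPM in the female 6W pool, 0 in the male 6W pool and 0.447 and 0.459 CPM at 3D. Without the female 6W pool the median was -0.27. Cryba1, which the edgeR filter left out, was the 1 crystallin that DESeq2 called higher. Retinal pigment epithelium markers summed to 226 and 109 CPM at 6W and 144 and 111 CPM at 3D. The female 6W pool was thus the highest of the 4 there too. In naïve retina these markers summed to 203 and 303 CPM, while the crystallins summed to 54.6 and 53.1 CPM. At 2W the sums were 164 and 132 CPM for the markers and 66.3 and 39.2 CPM for the crystallins. The part of other eye tissue in these values was not tested.

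Whether the change from early to late differed between glaucoma and optic nerve crush was tested in all 12 retina libraries, as 6W minus 3D of glaucoma less 2W minus 3D of crush. Crush is an acute injury to the nerve behind the eye, and its late time was 2W, so injury and interval cannot be told apart. EdgeR called 14 of 24693 genes (0.0567%), 11 above (0.0445%) and 3 below 0 (0.0121%), and DESeq2 called 0.469% of genes. The differences below 0 were Ak4 (-4.1), Dpm1 (-3.8) and Grk1 (-2.5). In the 12-library fit Grk1 was at 845 and 710 CPM 3D and at 999 and 1070 CPM 2W after crush, and Ak4 at 21 and 24.2 CPM against 27 and 30.6 CPM, so neither was lower late after crush. Dpm1 was at 19.2 and 13.9 CPM 3D and at 59.7 and 68.1 CPM 2W after crush, the reverse of its order in glaucoma.

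Among the differences above 0 were RGC genes that fell after crush. Slc17a6, the vesicular glutamate transporter of RGCs, was at 64.5 and 60.9 CPM at 3D and 51.2 and 54.7 CPM at 6W of glaucoma, and at 66.8 and 87.4 CPM 3D and 9.57 and 9.03 CPM 2W after crush (difference of the log2 changes 2.8, SE 0.22, edgeR adjusted p = 0.00219). Nefm and Nefl, 2 neurofilament subunits of RGC axons, differed by 2.66 (SE 0.23, adjusted p = 0.00219) and 2.43 (SE 0.28, adjusted p = 0.0118). Their glaucoma values were 81.9 and 110 CPM against 118 and 135 CPM for Nefm, and 387 and 623 CPM against 575 and 628 CPM for Nefl. After crush Nefm went from 101 and 106 to 23.3 and 20 CPM and Nefl from 413 and 466 to 106 and 87.4 CPM. The other 8 calls above 0 were Sbk1 (3), Zfp280b (5.04), Gpr26 (2.95), Srgap1 (2.94), Nell2 (2.14), Cdh4 (1.63), Skida1 (2.8) and Purb, whose fitted value cannot be read because all female pools hold 0 counts. All 8 RGC markers had a difference above 0, with a median of 2.91, and 7 had an unadjusted p under 0.05 in edgeR. None was called by edgeR. Over all genes the median was 0.02, 12657 of 24693 were above 0, and 1022 were above 0 with p under 0.05. Of the 24 other RGC genes 23 were above 0, with a median of 1.15 and 3 called. The 6 stress genes had a median difference of -0.87 with none called. The study chose them for their response in the glaucoma retinas, so this direction is not independent evidence. Edn2 was at 17.8 and 10.7 CPM at 3D and 20.1 and 8.8 CPM at 6W of glaucoma. After crush Edn2 was at 11 and 3.4 CPM at 3D and 29.7 and 43 CPM at 2W.

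**Figure D4:**
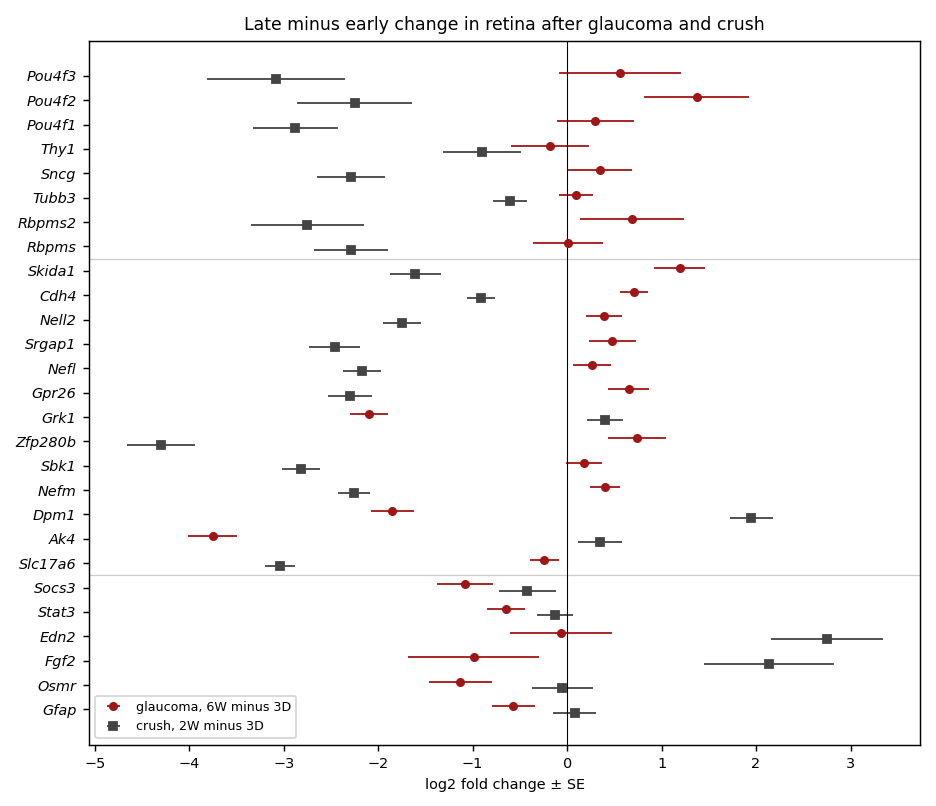
Log2 fold change with its SE in retina for 6W minus 3D of glaucoma (circles) and 2W minus 3D of crush (squares), from 1 fit of 12 libraries: 8 RGC markers at the top, the genes whose changes differed by edgeR in the middle (without Purb) and 6 stress genes at the bottom. The RGC markers lie between -0.18 and 1.37 in glaucoma and between -3.08 and -0.61 after crush.

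The same time comparison was set against the optic nerve of the same mice, split into its unmyelinated (UON) and myelinated (MON) part. EdgeR called 5 of 26550 genes (0.0188%) for retina less MON and 1 of 26731 (0.00374%) for retina less UON, and DESeq2 called 0.74% and 1.09% of genes. With the pool of mice as a block, since retina and nerve came from the same animals, edgeR called 0 genes in both (1051 and 1313 genes at an unadjusted p under 0.05). Zfp874b was lower at 6W in retina, at 15 and 15.1 CPM against 6.91 and 7.96 CPM, and higher in MON, at 1.18 and 2.03 CPM against 9.34 and 9.39 CPM (difference of the log2 changes -3.6, SE 0.44, edgeR adjusted p = 0.0391, or 0.627 with the block). The others were genes whose counts were 0 in some nerve pools: mt-Rnr1 and mt-Atp8, of the mitochondrial genome, were at 1010 and 500 CPM in 1 MON pool at 3D and at 0 in the other 3 MON pools. For the 6 stress genes the median difference of the log2 changes was -0.75 against MON and -1.03 against UON, with none called. Over all genes it was 0.05 and 0.08. The study chose these 6 genes for their response in these retinas, so the direction is not independent evidence.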

How the data were processed

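Total RNA of whole retina, from individual mice and pooled by sex in equal amounts, was sequenced as paired reads after an ultra-low-input preparation; strand of counting is not given in the sources used here. The authors aligned reads to GRCm38 with HISAT2 2.2.1, assembled and quantified them with StringTie 1.3.0 on Gencode, and deposited estimated counts per gene and transcript and, for each library, FPKM values. FPKM values just below 0, a rounding trace in the files deposited by the authors, were set to 0.

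The estimated counts of 55487 genes, whole in the table, were fitted with edgeR 4.0.16 (R 4.3.3, TMM factors), with time point and sex. The fit covered the 8 naïve and glaucoma retina libraries, which leaves 3 residual degrees of freedom. Its filter, filterByExpr, kept genes with at least 15 counts in total that also reached 10 counts, scaled to depth, in enough libraries. The biological coefficient of variation was 0.363. Genes were called at a Benjamini-Hochberg adjusted p under 0.05 and beyond 1 on the log2 scale. CPM use the TMM factors. Comparisons with crush and nerve were contrasts in 12 retina or 16 retina and nerve libraries. DESeq2 1.42.0 and limma 3.58.1 on log2(FPKM + 1) were alternatives, with other filters, factors and library sets, and each library left out. DESeq2 without each library, and the retina and nerve fits with the pool of mice as a block, were added after the results had been seen. Pools pair because the 3 tissues came from the same mice; across genes, male minus female differences of retina and nerve correlated at -0.031 to 0.094. The edgeR and DESeq2 steps were tested on simulated data. Positions are from Gencode, and promoters and motifs from RefSeq windows.

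The genes and lists described were chosen with earlier results of these data known. Named by rule were the called genes with an official symbol, at least 1 CPM and 1 sign in both sexes. All RGC markers and stress genes, and of other lists the members with the smallest p, were also named by rule. All other genes were named after their values were seen. Xist and Y-linked transcripts matched the labelled sex in 36 of 36 libraries. Depth was 19.9 M to 56 M counts in the 12 retina libraries. Some genes of these lists are not reported here.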

Additional observations from a re-analysis of the deposited data

Results flagged for a closer look

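The tests of the difference between 2 settings passed the threshold for 20 gene results by edgeR, each given here as retina's log2 change from 3D to 6W of glaucoma less the change in the other setting. Against crush in retina these were Zfp280b (5.04), Srgap1 (2.94), Nefl (2.43), Nefm (2.66), Nell2 (2.14), Skida1 (2.8), Cdh4 (1.63), Slc17a6 (2.8), Sbk1 (3) and Gpr26 (2.95) above 0 and Dpm1 (-3.8), Ak4 (-4.1) and Grk1 (-2.5) below it. Purb had fitted values of 15.08 against crush and 28.44 against MON, with 0 counts in every female pool, so that male pools alone set them. Against MON the others were Zfp874b (-3.6), Asic3 (-7.27), mt-Rnr1 (17.1) and mt-Atp8 (15.84), and against UON mt-Rnr1 (14.39).

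In Asic3 the retina values were steady, at 37.7 and 34.1 CPM at 3D and 37 and 37.4 CPM at 6W, and the 4 MON pools held 0, 0, 0.7 and 0.305 CPM. For mt-Rnr1 the retina pools held 720 and 661 CPM at 3D and 677 and 615 CPM at 6W, while in each nerve part 1 pool at 3D held counts and the others held 0. The source of the 0 counts was not tested. With the pool of mice as a block none of the calls against nerve was kept, and the adjusted p in edgeR ranged from 0.0863 for Purb to 0.627 for Zfp874b.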

How the results depend on the processing

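The count of 3 genes called between 6W and 3D was 3 under RLE factors, upper-quartile factors, the 1 CPM filter, 12 libraries, no fold limit and an adjusted p under 0.1. In the 6 glaucoma libraries it was 2, both higher at 6W, of which 1 was among the 3, so that Ak4 and Grk1 were not called. It was 0 in the 4 libraries alone, which leave 1 residual degree of freedom (2099 genes at an unadjusted p under 0.05), 0 by limma on log2(FPKM + 1) (1659 genes), 1 without the sex term, 10 without the filter and 92 by DESeq2. Leaving out 1 library in turn gave 8 to 19 by edgeR, and by DESeq2 134 and 127 without the female and male 3D pool and 102 and 127 without the female and male 6W pool. Such a fit leaves 1 time point with a lone library that is assumed to vary like the others. The cause of these differences was not tested. Between 2W and 3D the count of 1 became 120 by DESeq2, 0 without the sex term (2494 genes at an unadjusted p under 0.05), 13 without the filter and 5 to 9 with a library left out. Between 6W and 2W the count of 2 became 66, 8 without the filter and 10 to 18. For retina less MON, 5 became 152 by DESeq2, 2 without the sex term, 12 without the filter and 1 to 18. For retina less UON, 1 became 232, 0 without the sex term (2375 genes), 12 and 0 to 51, the last without the male 3D UON pool. Against crush, 14 became 107 by DESeq2, 40 without the filter and 13 to 42, with 42 without the male 3D and 28 without the male 6W glaucoma pool.

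Signs turned mostly for genes that edgeR did not call in the main fits, but also for Purb, mt-Atp8 and mt-Rnr1, which it did call. Rbpms was 0.02 in 6 libraries, 0.01 in 12 libraries and 0.14 by limma, with -0.77 to 0.62 when a library was left out, and 0.55 and 0.61 by DESeq2 without the male 3D and the male 6W pool. Edn2 was 0.03 without the sex term, -0.56 to 0.48 with a library left out, and 0.48 and 0.1 by DESeq2. With a library left out Tubb3 ranged from -0.14 to 0.37, Sncg from -0.27 to 1.24, Pou4f1 from -0.41 to 1.34, Nefl from -0.05 to 0.62, Thy1 from -0.88 to 0.31, Fgf2 from -3.24 to 0.2 and Crybb2 from -6.51 to 5.41. DESeq2 without the female 3D pool gave -0.14 for Tubb3, -0.26 for Sncg, -0.41 for Pou4f1, -0.05 for Nefl, 0.06 for Thy1 and -0.14 for Crybb2, without the female 6W pool 0.32 for Thy1, -5.54 for Crybb2 and -3.11 for Crygs (edgeR range 2.09 to 3.92), and without the male 6W pool 0.19 for Fgf2. Purb ranged from -0.73 to 16.02 and was -1.12 by DESeq2 without the male 3D pool, and against crush it ranged from -1.33 to 16.1. Against nerve, mt-Atp8 ranged from -0.02 to 16.99 in MON and mt-Rnr1 from -0.11 to 15.29 in UON. Ak4 and Grk1 were lower at 6W in all 20 alternatives and called in 17 and 15 of them. The median of the stress genes lay between -0.96 and -0.53 in all 20.

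Retina and nerve pools of a time and sex came from the same mice, so a fit with the pool as a replicate block was added after the results had been seen. It gave 0 calls for retina less MON and 0 for retina less UON. Within retina no paired analysis was possible because the groups hold different mice, and sex was already a term of the fit.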

Other observations

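Beyond the lists above, Hk2 and Hmox1 had a small unadjusted p between the times without passing the adjusted threshold. Hk2, the hexokinase of photoreceptor glycolysis, was at 199 and 252 CPM at 3D, 440 and 402 CPM at 2W and 331 and 346 CPM at 6W (log2 difference 6W minus 3D 0.59, SE 0.16, edgeR adjusted p = 0.587). Hmox1, the haem oxygenase induced by oxidative stress, was at 14.1 and 17.6 CPM at 3D and 7.94 and 7.93 CPM at 6W, with 8.14 and 5.62 CPM in naïve retina (-1.01, SE 0.33, edgeR adjusted p = 0.587). The 26 glycolysis and hypoxia genes had a median of -0.05. Of 17 NRF2 targets and metallothioneins 12 were lower at 6W, 9 without overlap, with a median of -0.19 that ranged from -0.39 to -0.14 over the alternatives; 48.7% of all genes were lower and 19.9% lower without overlap.

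Of 19 genes of the circadian clock DESeq2 called 1 higher and 1 lower, where it called 0.281% of all genes in each direction; 10 were higher and 9 lower, with a median of 0.12. Nfil3, a repressor of clock output genes, fell from 18.2 and 17.4 CPM at 3D to 10.3 and 7.48 CPM at 6W (log2 fold change -1.01, DESeq2 adjusted p = 0.0403, edgeR adjusted p = 0.58), and Rorb rose. Clock itself was at 77.8 and 77.7 CPM against 124 and 111 CPM (0.6, SE 0.16, edgeR adjusted p = 0.587). The hour of collection is not given in the sources used here. The endothelial genes Vwf (17 and 16.6 against 11.3 and 9.28 CPM) and Cldn5 (17.9 and 35.3 against 11.4 and 17.9 CPM) had lower values at 6W, and 15 of 22 genes of their list did, with a median of -0.17.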
